A study of Mus musculus with 20 samples.

Results

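Transcripts of 9 sensory transduction channels were examined in lumbar dorsal root ganglia (DRG), which hold the cell bodies of the sensory neurons of the leg, from 10 male mice 1 day after transection of the sciatic nerve. The 9 genes were taken by symbol, as channels that sense heat, cold, irritants and touch: Trpv1, Trpv2, Trpa1, Trpm8, Trpm3, Trpm2, Trpc5, Piezo1 and Piezo2. All 9 were found among the 78258 genes of the count table and all 9 were among the 28564 genes that passed the filter on low counts. Each mouse gave 1 library from the ganglia of the lesioned side (ipsilateral) and 1 from the other side (contralateral), which made 4 groups of 5 libraries.

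The conditional knockout mice (cKO) were Ahr fl/fl and carried Thy1CRE-ERT2/EYFP, a Thy1-driven Cre recombinase that acts after tamoxifen, linked to a yellow fluorescent protein. The controls were Ahr f/f or f/+, so they too carried floxed Ahr, and no Cre is listed for them. Their sample titles read Wildtype, whereas the library names of all of them hold the letters ff. Every mouse of both genotypes received tamoxifen (100 mg/kg daily for 5 days, into the peritoneum) at an age of 17 weeks, and was operated on 4 weeks later. The ganglia were those of L4-L6, taken 1 day after the lesion. Ahr encodes the aryl hydrocarbon receptor, a ligand-activated transcription factor. Deletion was limited to cells in which the Thy1 promoter had driven the recombinase, whereas the libraries hold RNA of all cells of the ganglia. The contralateral ganglia came from the same operated mice, not from unoperated ones.

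TRP channels are cation channels of the plasma membrane, and several of them turn heat, cold or chemical irritants into current at the endings of sensory neurons. Piezo channels open when the membrane is stretched or indented, and Piezo2 carries much of touch and the sense of limb position. In a ganglion these channels mark different neurons: Trpv1 and Trpa1 are textbook genes of nociceptors, Trpm8 of cold-sensing neurons and Piezo2 of mechanoreceptors, while Piezo1 is also used by endothelium and connective tissue.

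The libraries held 76.2 to 118.5 M counts (M, mega), and the 9 channels had between 65 counts (the lowest library of Trpc5) and 57717 counts (the highest of Piezo2) per library. Ahr, the targeted gene, was checked first: it had 24.2 ± 2.10 normalised CPM (counts per 1 M counts; SD, n = 5) in control contralateral and 20.4 ± 0.536 CPM in cKO contralateral libraries, and 34.4 ± 2.86 and 31.9 ± 2.94 CPM on the ipsilateral side. Its genotype difference was not called on either side by edgeR (log2 fold change -0.25, adjusted p 0.103, and -0.11, adjusted p 0.99996). Contralaterally its 5 cKO libraries (19.5 to 21.0 CPM) lay below the 5 control ones (21.3 to 27.2 CPM), as in 1.07% of all genes. Its unadjusted edgeR p there was 0.00107, and 17.5% of all genes had one under 0.05. DESeq2 called it and limma-voom did not. The 12 general neuron markers summed to 11736 to 14322 CPM over the 20 libraries and none was at 0. The contralateral cKO libraries were the least alike: the summed level of 6 fibroblast markers was 1003 CPM in H61, 2236 in H64, 1980 in H95, 935 in H99 and 1685 in H100, against 802 to 1356 CPM in control contralateral libraries. Skeletal muscle markers reached 1592 CPM in the contralateral library of H100, 609 in the ipsilateral library of H65 and 330 in the contralateral library of H62. edgeR called none of the 6 fibroblast and 5 muscle genes in any comparison; between the genotypes contralaterally, 5 of the 6 fibroblast genes had an unadjusted p under 0.05 and DESeq2 called 2, limma-voom 0. After injury DESeq2 called 1 fibroblast gene in controls, as did limma-voom, and 4 of the 5 muscle genes in cKO mice. In these bulk libraries fewer cells of a type and less RNA per cell cannot be told apart.

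To compare the levels of the channels with one another, CPM were divided by the length of each gene's merged exons. In control contralateral ganglia Trpv1, the capsaicin and heat receptor, was the highest with 50.5 ± 4.93 CPM per kilobase (SD, n = 5). Piezo2 followed with 26.9 ± 2.19, Trpa1, the receptor of mustard oil and other irritants, with 22.4 ± 1.55, and Trpv2, a relative of Trpv1, with 19.6 ± 0.264 CPM per kilobase. Trpm8, the cold and menthol receptor, had 11.3 ± 2.14 CPM per kilobase. The melastatin channels Trpm3 and Trpm2 came next, with 3.21 ± 0.151 and 2.94 ± 0.207 CPM per kilobase. Piezo1 had 0.747 ± 0.0649 and Trpc5, a cold-sensitive channel of the canonical subfamily, 0.406 ± 0.0820 CPM per kilobase. The ranges of Piezo2 and Trpa1 overlapped, as did those of Trpm3 and Trpm2; all other neighbours in this order were apart. The highest mean was 124 times the lowest. The levels depend on the exon model used (GENCODE M21), which for Trpm3 holds 24437 merged exon bases.

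**Figure D1:**
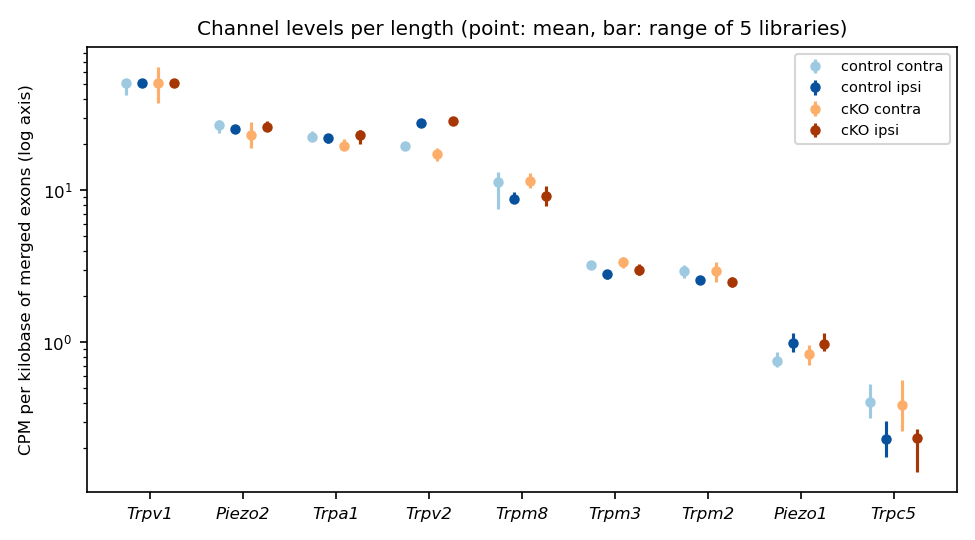
CPM per kilobase of merged exons (log axis) for the 9 channels in the 4 groups; points are means and bars run from the lowest to the highest of 5 libraries. Trpv1 stands highest at 50.5 and Trpc5 lowest at 0.406 CPM per kilobase in control contralateral ganglia, and Trpv2 is the gene whose ipsilateral points lie clearly above its contralateral ones.

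The stretch of 250 bases before the annotated start site is shown for Trpv2, the channel with the largest rise, and for Trpm3 and Trpc5, whose windows held the letters searched; the search was made since the study deletes a DNA-binding receptor. The sequences are from RefSeq on GRCm38.p6, read 5′ to 3′ on the gene's strand, and capitals mark the core letters of the AHR response element, GCGTG, on either strand (CACGC on the other). A match is a description of the letters, not a binding site.
Trpv2, chr11:62574236-62574485, plus strand: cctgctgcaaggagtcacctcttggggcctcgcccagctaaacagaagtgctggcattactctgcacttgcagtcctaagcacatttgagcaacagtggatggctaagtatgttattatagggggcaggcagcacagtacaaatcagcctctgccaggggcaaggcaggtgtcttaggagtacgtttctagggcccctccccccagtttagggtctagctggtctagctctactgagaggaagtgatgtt
Trpm3, chr19:22138796-22139045, plus strand: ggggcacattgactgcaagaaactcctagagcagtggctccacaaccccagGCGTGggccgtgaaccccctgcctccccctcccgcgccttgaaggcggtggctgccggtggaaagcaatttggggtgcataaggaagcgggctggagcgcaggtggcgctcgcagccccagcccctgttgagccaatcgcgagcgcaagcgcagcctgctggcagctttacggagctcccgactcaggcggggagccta
Trpc5, chrX:144688181-144688430, minus strand: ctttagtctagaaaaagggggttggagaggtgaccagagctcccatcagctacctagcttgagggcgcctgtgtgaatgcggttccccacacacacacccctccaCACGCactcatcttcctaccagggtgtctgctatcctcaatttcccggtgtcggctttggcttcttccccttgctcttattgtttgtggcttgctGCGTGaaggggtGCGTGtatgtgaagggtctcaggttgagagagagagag
The first of 3 listed start sites of Trpv2 and the first of 2 of Trpm3 are printed. Trpc5 held the core 3 times, each of the 2 windows of Trpm3 held it 1 time, and the windows of Trpv1, Trpv2, Trpm8, Trpm2 and Piezo1 did not hold these letters. Of 32851 RefSeq promoter windows of the same length, 28.16% held it. The AP-1 letters TGANTCA (in 6.75% of those windows) and the CRE letters TGACGTCA (in 1.55%) were in none of the 10 windows of the 7 channels matched in the promoter table.

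The first question was how the channels respond to transection, ipsilateral against contralateral, in each genotype. In control mice 6 of the 9 channels were called at an adjusted p under 0.05: Trpv2 and Piezo1 rose, and Trpm8, Trpm3, Trpm2 and Trpc5 fell. The background was high, with 29.9% of all tested genes called in this comparison (13.8% higher and 16% lower). In cKO mice 6 of 9 were called too, against a background of 31.3% (16.2% higher and 15.1% lower): Trpv2 and Trpa1 rose, and Trpm8, Trpm3, Trpm2 and Trpc5 fell. In both genotypes alike, 1 channel was called higher and 4 lower, beside 11.4% and 9.96% of all genes. DESeq2 and limma-voom each called 6 of the 9 in both genotypes. Trpv1 and Piezo2 were called in neither genotype, as were 60.2% of all genes. The median log2 fold change of the 9 was -0.08 in control and 0.02 in cKO mice, beside -0.00 and -0.03 over all tested genes. The groups' ranges were apart for 4 of 9 channels in control mice (Trpv2, Trpm3, Trpc5 and Piezo1; 23.6% of all genes) and for 1 of 9 in cKO mice (Trpv2; 20.2% of all genes).

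**Figure D2:**
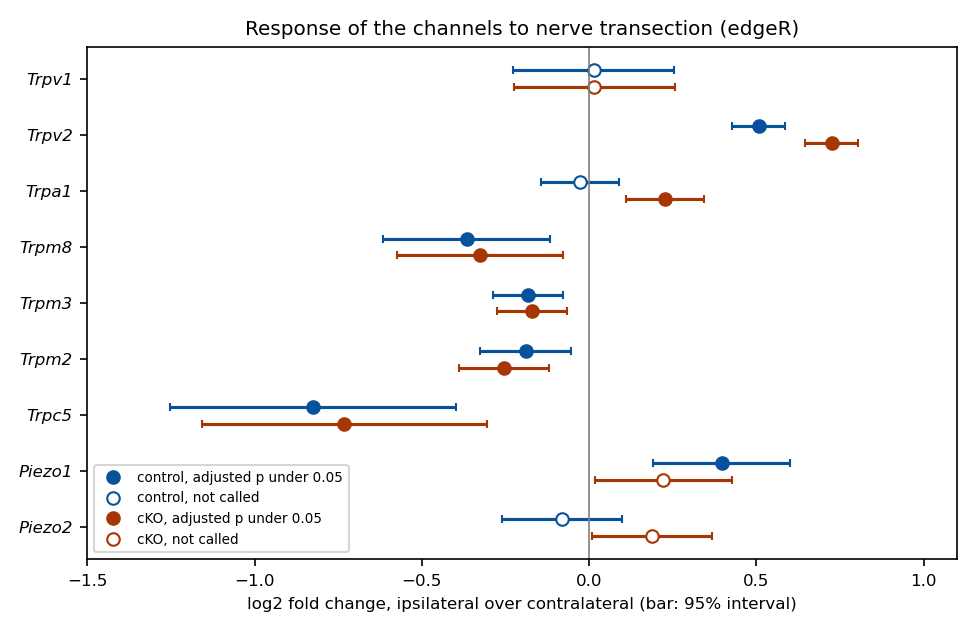
Log2 fold change of each channel, ipsilateral over contralateral, in control (blue) and cKO (orange) mice, with 95% intervals from the edgeR fit (n = 5 mice per genotype); filled points were called. Trpv2 lies highest, at 0.51 and 0.73, and Trpc5 lowest, at -0.83 and -0.73, with the intervals of Trpv1 centred near 0.

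Trpv2, a heat-gated channel of larger sensory neurons that is also present in immune cells, had the clearest response. Its contralateral libraries in controls held 87.0 (H62), 87.1 (H63), 89.8 (H65), 87.8 (H96) and 87.1 CPM (H97), and its ipsilateral libraries, in the same order of mice, 123.4, 122.9, 128.3, 127.8 and 121.4 CPM. In cKO mice the contralateral libraries held 78.4 (H61), 69.3 (H64), 78.0 (H95), 85.5 (H99) and 74.0 CPM (H100), and the ipsilateral ones 124.4, 129.9, 129.8, 125.8 and 127.0 CPM. Every ipsilateral library was above every contralateral one, in both genotypes. The rise was 42.1% in controls (log2 fold change 0.51, SE 0.0383, adjusted p 1.94e-09) and 65.3% in cKO mice (0.73, SE 0.0384, adjusted p 5.67e-12). It was present in 10 of 10 mice, with a mean per-mouse difference of 0.62 ± 0.146 (SD, n = 10; two-sided exact sign-flip permutation p 0.00195, the smallest that 10 mice allow; 12.5% of all genes were higher in 10 of 10 mice). Macrophage markers, whose cells also use Trpv2, summed to 91.7 to 178 CPM in control contralateral and 107 to 208 CPM in control ipsilateral libraries. In cKO libraries they summed to 91.2 to 238 and 137 to 234 CPM. These ranges overlapped, but within mice the sum was higher ipsilaterally in 4 of 5 controls (not H65) and 3 of 5 cKO mice (not H64 and H95). In controls edgeR called 1 of the 10 macrophage genes (Mrc1), DESeq2 2 and limma-voom 1, and none was called in cKO mice; the part of these cells in the Trpv2 response was not tested.

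Piezo1, a stretch-gated channel, was the other riser in controls. Its control contralateral libraries held 8.50 (H62), 7.26 (H63), 6.78 (H65), 7.41 (H96) and 7.17 CPM (H97), against 9.77, 10.2, 8.55, 8.87 and 11.5 CPM ipsilaterally. All 5 ipsilateral values were above the contralateral ones, although the lowest of them, in H65, was close to the highest contralateral value, in H62. The log2 fold change was 0.40 (SE 0.0986, adjusted p 0.00383). In cKO mice Piezo1 held 7.41 (H61), 9.56 (H64), 9.22 (H95), 7.04 (H99) and 8.33 CPM (H100) contralaterally and 8.66, 10.3, 9.39, 8.66 and 11.5 CPM ipsilaterally. These groups overlapped, and the difference of 0.22 (SE 0.0983) had an adjusted p of 0.0936. With the mouse as a replicate block it was called (0.22, adjusted p 0.0346), and within each of the 10 mice the ipsilateral library was higher (mean 0.31 ± 0.192, SD, n = 10; exact sign-flip permutation p 0.00195). Endothelial markers moved with it in controls, where edgeR called 3 of 7 higher (Flt1, Tek and Emcn; 13.8% of all genes were), DESeq2 4 and limma-voom 5, and none of the tools called any in cKO mice (adjusted p of 0.388 or more, edgeR). The 7 summed to 96.02 to 137 CPM in control contralateral, 113 to 166 in control ipsilateral, 112 to 165 in cKO contralateral and 127 to 150 CPM in cKO ipsilateral libraries, and were higher ipsilaterally in 5 of 5 control and 3 of 5 cKO mice; their part in the response was not tested. The 6 fibroblast markers summed to 802 to 1356 CPM in control contralateral and 924 to 1519 CPM in control ipsilateral libraries. In cKO libraries they summed to 935 to 2236 and 848 to 1557.5 CPM. Within mice this sum was higher ipsilaterally in controls except H62, and lower in cKO mice except H99. With the mean log2 CPM of the 6 fibroblast markers as a covariate, the Piezo1 difference was 0.28 in controls (adjusted p 0.00377) and 0.35 in cKO mice (adjusted p 4.48e-04). In the annotation 24.57% of the exon bases of Piezo1 are shared with Ctu2 on the opposite strand; the strand setting of the counting is not given in the sources used here. Ctu2 had 14.5 CPM on average and was not called after injury (0.06, adjusted p 0.440, and 0.12, adjusted p 0.0969).

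Of the falling channels, Trpc5 changed by the largest factor and was the lowest in level. It held 2.65 (H62), 1.58 (H63), 2.02 (H65), 1.77 (H96) and 2.16 CPM (H97) in control contralateral libraries and 1.12, 1.52, 1.23, 0.885 and 0.993 CPM in control ipsilateral ones. In cKO mice the values were 2.84 (H61), 1.89 (H64), 1.31 (H95), 2.04 (H99) and 1.61 CPM (H100) contralaterally and 0.699, 1.34, 1.20, 1.29 and 1.30 CPM ipsilaterally. The ranges were apart in controls and touched in cKO mice, where the ipsilateral value of H64 was above the contralateral value of H95. Trpc5 fell by 43.6% in controls (log2 fold change -0.83, SE 0.205, adjusted p 0.00386) and by 39.8% in cKO mice (-0.73, SE 0.204, adjusted p 0.00872), and was lower ipsilaterally in 10 of 10 mice (exact sign-flip permutation p 0.00195, n = 10; 11.1% of all genes were lower in 10 of 10). Mouse H61 carried much of the cKO value: without it the log2 fold change was -0.42 (adjusted p 0.0804).

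Trpm8, the receptor of cold and menthol, fell as well, but its call was the least stable. Control contralateral libraries held 35.8 (H62), 54.8 (H63), 56.8 (H65), 57.1 (H96) and 61.9 CPM (H97), and control ipsilateral ones 42.0, 46.0, 38.8, 39.4 and 40.6 CPM. In cKO mice the contralateral libraries held 54.2 (H61), 48.5 (H64), 54.5 (H95), 61.7 (H99) and 54.4 CPM (H100), and the ipsilateral ones 37.6, 45.0, 37.1, 48.3 and 50.1 CPM. The contralateral library of control mouse H62 was the lowest of its side and made the control ranges overlap; in cKO mice the overlap came from the ipsilateral library of H100. In the annotation 8.2% of the exon bases of Trpm8 are shared with 4930453O03Rik on the opposite strand, which had 3.84 CPM on average and changed in the same direction (-0.47, adjusted p 0.00231, in controls, and -0.28, adjusted p 0.0576, in cKO mice); its part in the Trpm8 counts was not tested. The log2 fold change of Trpm8 was -0.37 in controls (SE 0.119, adjusted p 0.0256) and -0.33 in cKO mice (SE 0.119, adjusted p 0.0439). With the replicate block by mouse both missed the threshold (-0.35, adjusted p 0.0516, and -0.33, adjusted p 0.0568). Leaving out H63, H65, H96 or H97 ended the control call (-0.38 to -0.28), and leaving out H61, H63, H64, H65, H95, H96 or H99 the cKO call (-0.38 to -0.27). Over the alternatives the adjusted p ran from 6.32e-04 to 0.136 in controls and from 0.00532 to 0.151 in cKO mice. Trpm8 was lower ipsilaterally in 9 of 10 mice, all but H62 (mean -0.34 ± 0.273, SD, n = 10; exact sign-flip permutation p 0.00977).

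Trpm3 and Trpm2 fell by smaller amounts. Trpm3, which opens to noxious heat and neurosteroids, ranged from 74.1 to 84.0 CPM in control contralateral and from 63.9 to 72.8 CPM in control ipsilateral libraries, which do not overlap. In cKO mice it ranged from 75.3 to 88.1 and from 67.6 to 79.8 CPM, which overlap. It fell by 0.18 on the log2 scale in controls (SE 0.0503, adjusted p 0.00798) and by 0.17 in cKO mice (SE 0.0503, adjusted p 0.0121), and was lower in 9 of 10 mice. The control call was lost without H65 (-0.14, adjusted p 0.0672) and the cKO call without H95 (-0.14, adjusted p 0.0672) or H99 (-0.15, adjusted p 0.0542), and also when only the libraries compared were fitted (-0.15, adjusted p 0.0597). Of the exon bases of Trpm3, 1.44% are shared with C330002G04Rik on the opposite strand, which had 3.78 CPM on average. It was called in neither genotype (-0.17, adjusted p 0.124, and -0.13, adjusted p 0.220). A further 1.13% are shared with Gm27151, also on the opposite strand, which had 2.13 CPM on average. Gm27151 was called lower in controls (-0.51, adjusted p 0.00153) but not in cKO mice (-0.21, adjusted p 0.163). Trpm2, an oxidant-sensitive channel, ranged from 32.7 to 39.8 and from 30.9 to 33.8 CPM in controls, and from 30.9 to 42.1 and from 28.6 to 33.2 CPM in cKO mice. Both pairs of ranges overlap. Trpm2 fell by 0.19 in controls (SE 0.0650, adjusted p 0.0319) and by 0.25 in cKO mice (SE 0.0650, adjusted p 0.00452), and was lower in 9 of 10 mice. The control call of Trpm2 was lost without H63 (-0.16), H65 (-0.18), H96 (-0.18) or H97 (-0.13), with adjusted p between 0.0920 and 0.218, and with no filter (-0.18, adjusted p 0.0566). Some general neuron markers fell beside these channels: 4 of 12 were called lower in controls (Isl1 -0.37, Rbfox3 -0.27, Pou4f1 -0.18 and Elavl4 -0.15) and 3 of 12 in cKO mice (Isl1 -0.35, Rbfox3 -0.15 and Snap25 -0.15), beside 16% and 15.1% of all genes. Of 6 satellite glia markers, 2 were called higher in both genotypes (Glul 0.46 and 0.30, Kcnj10 0.30 and 0.25), beside 11.4% of all genes. The others were called in neither, and 3 of the 6 were below 0 in cKO mice. The summed levels were 12332 to 14039 CPM (contralateral) and 12332 to 13820 CPM (ipsilateral) for the neuron markers in controls, and 12192 to 14322 and 11736 to 12918 CPM in cKO mice. For the glia markers they were 1495 to 1658 and 1699 to 1916 CPM in controls, and 1490 to 1837 and 1622 to 1829 CPM in cKO mice. Their part in the falls of Trpm8, Trpm3, Trpm2 and Trpc5 was not tested.

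Trpv1 and Piezo2, the highest channels per kilobase, were called in neither genotype. Trpv1, the receptor of capsaicin and noxious heat, held 154.7 (H62), 196.2 (H63), 185.8 (H65), 198.8 (H96) and 194.3 CPM (H97) in control contralateral libraries and 199.5, 187.3, 189.7, 184.8 and 177.1 CPM in control ipsilateral ones. In cKO mice it held 181.7 (H61), 138.1 (H64), 236.9 (H95), 149.4 (H99) and 220.9 CPM (H100) contralaterally, and 180.6, 188.7, 191.7, 179.1 and 196.8 CPM ipsilaterally. The cKO contralateral libraries spread from below to above all the others, with a coefficient of variation of 23.3%, against 3.98% on the ipsilateral side of the same mice; the medians over 13829 genes with at least 5 CPM were 6.58% and 4.42%. The differences of 0.01 in controls (95% interval -0.23 to 0.25) and 0.02 in cKO mice (-0.22 to 0.26) leave room for a change of either sign below those bounds. Trpv1 was higher ipsilaterally in 4 of 10 mice.

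**Figure D3:**
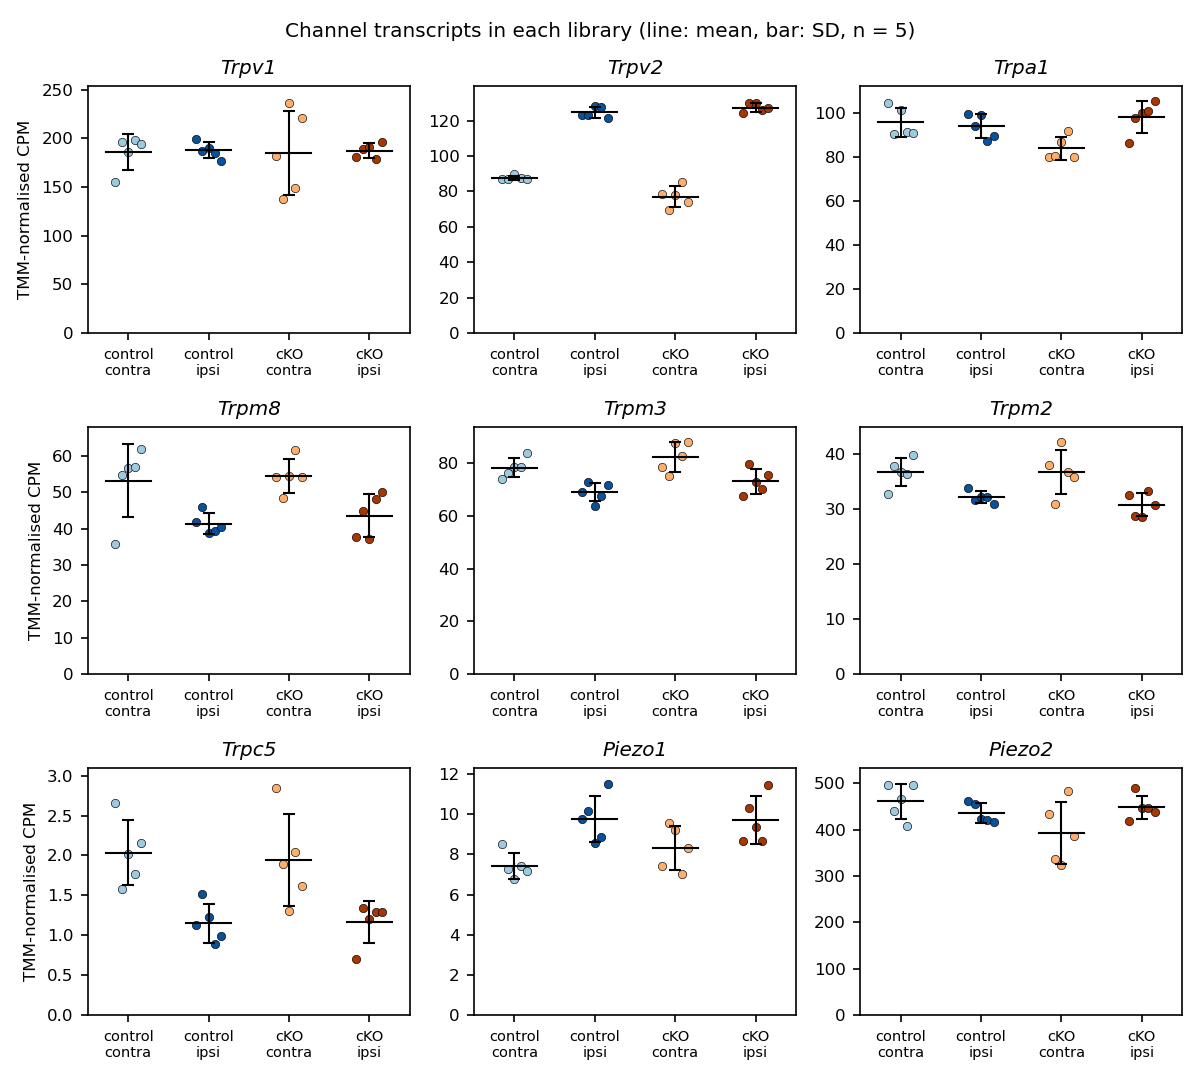
TMM-normalised CPM of each channel in the 20 libraries, by genotype and side; lines are means and bars are SD (n = 5), with a separate axis from 0 for each gene. The ipsilateral points of Trpv2 lie above all contralateral ones, while the cKO contralateral points of Trpv1 and Piezo2 are the most scattered of their panels.

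Piezo2, the channel of touch and limb position, held 495.7 (H62), 441.2 (H63), 466.9 (H65), 408.0 (H96) and 495.7 CPM (H97) in control contralateral libraries and 461.5, 456.2, 423.4, 421.4 and 417.5 CPM in control ipsilateral ones. In cKO mice it held 433.0 (H61), 337.1 (H64), 324.9 (H95), 483.1 (H99) and 387.2 CPM (H100) contralaterally and 419.2, 488.9, 446.7, 446.7 and 438.7 CPM ipsilaterally. The groups overlapped in both genotypes. Its log2 fold change was -0.08 in controls (95% interval -0.26 to 0.10, adjusted p 0.536) and 0.19 in cKO mice (0.01 to 0.37, adjusted p 0.103). Without mouse H99 the cKO difference was called (0.28, adjusted p 0.0134); it was 0.11 without H64 (adjusted p 0.444) and 0.13 with the fibroblast covariate described above (adjusted p 0.236), and 1 of 20 alternatives gave a call. Of 7 markers of large-diameter mechanoreceptors and proprioceptors, neurons that use Piezo2, 3 were called lower in controls and 4 in cKO mice, beside 16% and 15.1% of all genes.

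Trpa1, the receptor of mustard oil and other electrophilic irritants, was called in cKO mice alone. Its control contralateral libraries held 104.5 (H62), 90.5 (H63), 101.1 (H65), 91.4 (H96) and 91.0 CPM (H97), and its control ipsilateral ones 99.6, 93.9, 98.9, 87.4 and 89.6 CPM. In cKO mice it held 79.9 (H61), 80.6 (H64), 86.6 (H95), 91.8 (H99) and 79.9 CPM (H100) contralaterally and 86.4, 97.5, 100.0, 100.8 and 105.4 CPM ipsilaterally. The control groups lay over each other, and in cKO mice each ipsilateral library was above the contralateral library of its own mouse. The log2 fold change was -0.03 in controls (SE 0.0562, adjusted p 0.769) and 0.23 in cKO mice (SE 0.0563, adjusted p 0.00373). A call in one genotype and not in the other is no test of their difference, which is given next.

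**Figure D4:**
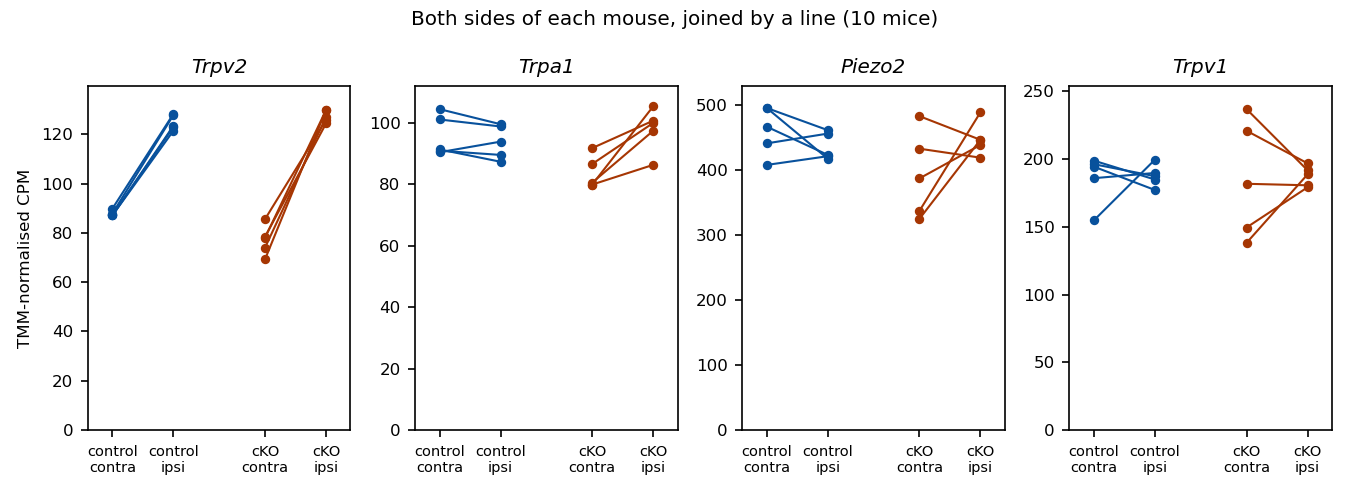
TMM-normalised CPM of Trpv2, Trpa1, Piezo2 and Trpv1 in the contralateral and ipsilateral library of each mouse, joined by a line, for 5 control (blue) and 5 cKO mice (orange). All 10 lines of Trpv2 rise; for Trpa1 the 5 cKO lines rise while 1 of 5 control lines does.

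The second question was whether the injury response differed between the genotypes. In the edgeR interaction over all genes 0 of 9 channels were called, and 0% of all tested genes; DESeq2 and limma-voom also called 0 of the 9. At an unadjusted p under 0.05, reached by 9.8% of all genes, there were 3, Trpv2, Trpa1 and Piezo2, all with the more positive response in cKO mice. Trpv2 differed by 0.22 (SE 0.0540, adjusted p 0.485), Trpa1 by 0.25 (SE 0.0795, adjusted p 0.485) and Piezo2 by 0.27 (SE 0.121, adjusted p 0.498). Leaving out H99 gave Trpv2 an interaction of 0.26 with an adjusted p of 0.0434, and 43 genes called in all. With the mean log2 CPM of the fibroblast markers as a covariate the interaction was 0.16 for Trpv2, 0.27 for Trpa1 and 0.15 for Piezo2 (adjusted p 1 for each). The per-mouse responses of Trpv2 averaged 0.51 ± 0.0229 in controls and 0.73 ± 0.131 in cKO mice (SD, n = 5), and every cKO mouse was above every control mouse (exact permutation test, two-sided, p 0.00794, the lowest possible with 5 mice per genotype). For Trpa1 they averaged -0.03 ± 0.0496 and 0.23 ± 0.117, again without overlap (exact permutation p 0.00794, n = 5), with 1 of 5 control and 5 of 5 cKO mice higher on the lesioned side. The responses of Piezo2 were -0.08 ± 0.127 and 0.20 ± 0.292 (exact permutation p 0.0952, n = 5). These p-values are unadjusted, and 9.68% of all genes had one under 0.05. The share of all genes without overlap, a stricter criterion, was not counted. For the other 6 channels the permutation p was 0.183 or more.

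The third comparison was cKO against control on each side. On the contralateral side 0 of 9 channels were called by edgeR, against a background of 0.0735% of all genes; 3 had an unadjusted p under 0.05 (17.5% of all genes did), DESeq2 called 2 (Trpv2 and Trpa1) among 1030 genes in all, against 21 for edgeR, and limma-voom called 0 of the 9. Trpv2 averaged 87.8 ± 1.18 CPM in controls and 77.0 ± 6.02 CPM in cKO mice (SD, n = 5), and the 5 cKO libraries lay below the 5 control ones, a separation that 1.07% of all genes showed in this direction and 1.52% in either. Its log2 fold change was -0.19 (SE 0.0383, adjusted p 0.0548). Trpa1 had 95.7 ± 6.62 and 83.8 ± 5.31 CPM (-0.19, SE 0.0563, adjusted p 0.116), and its ranges overlapped by the library of H99. Piezo2 had 461 ± 37.6 and 393 ± 66.2 CPM (-0.23, SE 0.0856, adjusted p 0.177), with overlap. For the other 6 channels the log2 fold changes ran from -0.07 (Trpc5) to 0.16 (Piezo1), with adjusted p of 0.412 or more. Markers of nonpeptidergic nociceptors, neurons in which Trpa1 is prominent, had the same signs: all 5 had a log2 fold change below 0 in this comparison (median -0.21) and above 0 in the interaction (median 0.27). edgeR called none of the 5 in either; 4 and 3 had an unadjusted p under 0.05, and DESeq2 called 1 contralaterally. They summed to 1211 to 1306 CPM in control and 987 to 1316 CPM in cKO contralateral libraries, and their part in the Trpa1 values was not tested. Some other lists showed the same signs: all 5 itch neuron markers (medians -0.26 contralaterally and 0.21 in the interaction) and all 3 C-low-threshold mechanoreceptor markers (-0.27 and 0.30) were below 0 contralaterally and above 0 in the interaction. edgeR called none of these 8; contralaterally 4 of the 5 and 2 of the 3 had an unadjusted p under 0.05, and DESeq2 called 2 and 1. In the interaction 2 and 2 had an unadjusted p under 0.05, and DESeq2 and limma-voom called none. The signs were mixed in the remaining neuron lists. Of 5 peptidergic nociceptor markers 3 were below 0 contralaterally and 3 above 0 in the interaction. Of 7 large-diameter markers 6 and 4 were, and of 12 general neuron markers 9 and 5. All 10 macrophage, 7 endothelial, 6 fibroblast, 5 erythroid, 6 neutrophil and 5 muscle markers had the opposite signs in both comparisons. Of 6 satellite glia and 7 Schwann cell markers, 4 and 4 were above 0 contralaterally, and all were below 0 in the interaction. edgeR called none of these, and their part in the channel values was not tested.

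The contralateral calls changed with the setting. Without mouse H99 edgeR called Trpv2 (-0.23, adjusted p 0.00170), Trpa1 (-0.22, adjusted p 0.0190) and Piezo2 (-0.31, adjusted p 0.0167), and 3326 genes in all, in place of 21. Without H61 it called Trpv2 alone of the 9 (-0.19, adjusted p 0.0472), and 174 genes in all. With every mouse kept, edgeR called Trpv2 with no filter (-0.19, adjusted p 0.0434) and with the filter at 1 CPM (-0.18, adjusted p 0.0417). H61 and H99 were the cKO contralateral libraries with 1003 and 935 CPM of fibroblast markers, the other 3 having 1685 to 2236 CPM. With the fibroblast marker mean as a covariate the differences were -0.13 for Trpv2 (adjusted p 0.787), -0.21 for Trpa1 (adjusted p 0.834) and -0.12 for Piezo2 (adjusted p 0.927), and that of Piezo1 changed from 0.16 to -0.08. The cKO contralateral libraries enter both the injury comparison in cKO mice and this one, so a low contralateral value moves both. Within the mice numbered H61 to H65, and within those numbered H95 to H100, the differences were -0.26 and -0.15 for Trpv2, -0.30 and -0.08 for Trpa1 and -0.29 and -0.19 for Piezo2.

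On the ipsilateral side no difference between the genotypes was detected at the 9 channels. None was called by edgeR (0.007% of all genes were), DESeq2 or limma-voom, and 0 of 9 had an unadjusted p under 0.05 (2.36% of all genes did). Trpv2 averaged 125 ± 3.07 CPM in controls and 127 ± 2.45 CPM in cKO mice (SD, n = 5), a log2 difference of 0.03 with a 95% interval from -0.05 to 0.11. The interval was -0.05 to 0.18 for Trpa1, -0.24 to 0.24 for Trpv1, -0.14 to 0.22 for Piezo2 and -0.02 to 0.19 for Trpm3. It was widest for Trpc5, at -0.41 to 0.46.

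The other genes of the pathway were described from 3 lists. Of 21 other TRP subunits, 19 passed the filter (not Trpv5 and Pkd2l1). In control mice 9 were called, 3 higher and 6 lower, and in cKO mice 7, 3 higher and 4 lower, beside 29.9% and 31.3% of all genes; the median log2 fold changes were -0.05 and 0.07. Mcoln2, a mucolipin channel of endolysosomes, rose from 0.536 ± 0.0497 to 2.88 ± 0.386 CPM in controls and from 0.569 ± 0.0680 to 3.17 ± 0.401 CPM in cKO mice (SD, n = 5; log2 fold changes 2.42 and 2.48, adjusted p 1.56e-12 and 9.03e-13). The canonical channels Trpc4 and Trpc6, which open downstream of phospholipase C, fell in both genotypes. Trpc6 went from 29.1 ± 1.94 to 18.0 ± 1.21 CPM in controls and from 26.1 ± 3.81 to 19.9 ± 2.51 CPM in cKO mice (SD, n = 5; -0.70 and -0.39). Trpc4 changed by -0.71 and -0.64, and Trpm7, a channel fused to a kinase, by -0.13 and -0.11. Trpm1 and Mcoln3, named after their values were seen, were also called higher in both genotypes, at low levels: Trpm1 went from 0.0192 to 0.338 CPM in controls and from 0.0256 to 0.325 CPM in cKO mice. Mcoln3 went from 0.00822 to 0.115 and from 0.0280 to 0.164 CPM (means, n = 5).

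Of 12 genes proposed as mechanotransduction channels or partners, 6 were called in control mice (2 higher, 4 lower) and 4 in cKO mice (3 higher, 1 lower), with medians of 0.05 and -0.01. The shares of all genes called were 29.9% and 31.3%, so the count in cKO mice was near the background. Tmem63c, of the OSCA and TMEM63 family of stretch-gated channels, rose from 135 ± 6.15 to 170 ± 4.40 CPM in controls and from 117 ± 15.8 to 176 ± 11.2 CPM in cKO mice (SD, n = 5; 0.33, adjusted p 6.16e-04, and 0.58, adjusted p 7.85e-07). Mtmr2, a phosphoinositide phosphatase, fell by 0.08 in both. Tmem63a (-0.29) and Tmem63b (-0.22), relatives of Tmem63c named after their values were seen, were called lower in controls, so the members of the Tmem63 family moved in opposite directions there. Stoml3, a stomatin-like partner of Piezo channels, had a mean under 1 CPM in each group and was not called.

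Of 12 TRP modulators and partners, 7 were called in control mice (1 higher, 6 lower) and 9 in cKO mice (1 higher, 8 lower), beside 29.9% and 31.3% of all genes (16% and 15.1% lower). The medians were -0.14 and -0.15, beside -0.00 and -0.03 over all genes. Ano1, a calcium-activated chloride channel that amplifies TRP currents, was the 1 that rose, from 12.1 ± 0.614 to 18.1 ± 1.27 CPM in controls and from 12.6 ± 1.51 to 18.4 ± 1.36 CPM in cKO mice (SD, n = 5; 0.58 and 0.55). Cdk5r1, the activator of the kinase Cdk5, fell by 0.54 in controls and by 0.40 in cKO mice. Plcb3, a phospholipase C that breaks down the lipid PIP2, fell by 0.46 and 0.29. Pip5k1c, which makes that lipid, fell by 0.30 and 0.21. Pirt, a membrane protein that binds Trpv1 and Trpm8, fell by 0.20 and 0.16. In the 3 lists edgeR called 0 genes in either genotype comparison or in the interaction. At an unadjusted p under 0.05 there were 4, 6 and 4 contralaterally (other TRP subunits, mechanotransduction genes, modulators), 0, 2 and 0 ipsilaterally and 3, 6 and 2 in the interaction; the shares over all genes were 17.5%, 2.36% and 9.8%. DESeq2 called 2 mechanotransduction genes contralaterally, and limma-voom none.

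**Figure D5:**
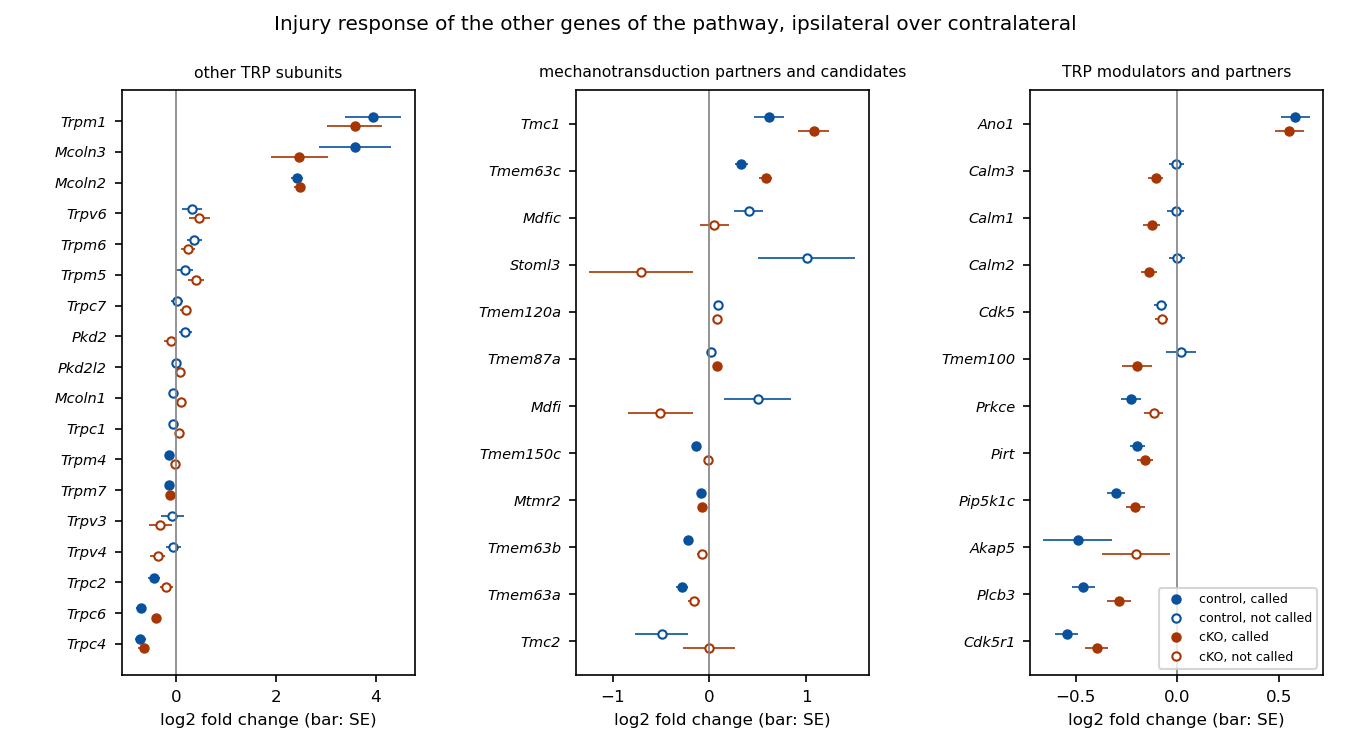
Log2 fold change after transection, ipsilateral over contralateral, for genes of 3 lists in control (blue) and cKO (orange) mice, with bars of 1 SE from the edgeR fit (n = 5 mice per genotype); filled points were called and each panel has its own axis. Mcoln2, at 2.42 and 2.48, and Ano1, at 0.58 and 0.55, lie to the right, and Trpc4, Trpc6 and Cdk5r1 to the left.

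The channels differed in which genes varied with them between libraries of the same group. Over the 20 libraries, and 13112 genes with a symbol and at least 5 CPM, the log2 CPM of each gene was taken as its deviation from the group mean and correlated with that of each channel; these values are descriptions, and all genes of a library share its depth and cell mixture. Trpv1 varied most like Negr1 (Pearson r 0.938), Gfra3 (0.917) and A4galt (0.905), Gfra3 being the artemin receptor of nociceptors. Trpm8 varied most like Cux2 (0.888), Gprc5c (0.886) and Sez6 (0.860), and Trpv2 like Gpd2 (0.932), Evi5l (0.880) and Tmem150c (0.855), the last a proposed mechanosensitive channel. Piezo2 varied most like Camsap2 (0.962), Eea1 (0.954) and Arhgef11 (0.947). Piezo1 varied with other genes, Islr (0.925), Lrrc32 (0.921) and Smad5 (0.911). For Trpm2 the closest were Gpr26 (0.865), Slc8a2 (0.835) and Slc29a4 (0.816), and for Trpm3 Pcdhgb7 (0.802), Atp2b4 (0.782) and Pcdhb22 (0.781). Trpa1 was close to Mccc1 (0.794) and Tmem63a (0.782). Trpc5, the lowest in level, had the loosest neighbours, C130083M11Rik (0.766), Zw10 (0.746) and Epb41 (0.732). Among the channels themselves the highest values were those of Trpc5 with Piezo2 and of Trpv1 with Trpm2 (both 0.63), and the lowest that of Trpv2 with Piezo1 (-0.55).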

How the data were processed

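RNA of DRG was read from stranded mRNA libraries as 150 bp pairs, per the labels' protocols. The authors deposited whole-number exonic counts per gene and a table of FPKM. The submitters' processing notes name HISAT2, Picard, mm10 and mm39, without roles; the counting program, annotation and strand setting are not given in the sources used here. The deposited FPKM divide CPM by the whole gene span (856365 bases for Trpm3), so they served within genes only. Symbols came from GENCODE M21 by Ensembl identifier (51487 of 78258 identifiers, holding 98.1% of counts).

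Counts were fitted with edgeR 4.0.16 in R 4.3.3 (TMM, filterByExpr, robust quasi-likelihood F-test, all 20 libraries, 1 mean per group), with Benjamini-Hochberg adjustment over 28564 genes; intervals are 95%. The script was tested on simulated data. CPM are TMM-normalised, and log2 CPM use a prior count of 2. Alternatives used DESeq2 1.42.0 and limma 3.58.1, with a pseudocount of 1 on FPKM, among others. The sides are paired by mouse number: the deviations of both libraries of a mouse correlated with a median r of 0.357 (-0.13 to 0.74; 8 of 10 mice over 0.1), and the block by mouse was an alternative. Replicate libraries differed by 5.31 to 58.3 times counting error (chi-square per degree of freedom, 40 pairs), so precision was set by the spread between libraries rather than by depth. No molecular identifiers are named, so counting limits would cover counting error only. 1 label field names a spinal cord injury and 1 title shortens a mouse number; the protocol and library name were followed. The channels, lists and markers were chosen with earlier results of these data known. All 9 channels are named, with the 3 genes most like each (over 5 CPM) and, per list, up to 4 genes per direction called alike in both injury comparisons (at least 1 CPM), except that some genes under this rule are not reported here.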

Additional observations from a re-analysis of the deposited data

Results flagged for a closer look

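Of 54 groups of 5 values (CPM in each group, and the per-mouse response in each genotype), 6 held a value farther from the rest than Dixon's 95% limit of 0.71 for the gap over the range, where chance gives about 2.7. The responses come from the same libraries as the levels, so the 54 are not separate tests. Trpc5 of H61 is flagged in both. They were the Trpv2 level of control mouse H65, contralateral (89.8 CPM, ratio 0.721), the Trpm8 level of control mouse H62, contralateral (35.8 CPM, ratio 0.728), and the Trpc5 level of cKO mouse H61, ipsilateral (0.699 CPM, ratio 0.789). Among the responses they were those of Trpm3 in cKO mouse H64 (0.08, ratio 0.853), of Trpm2 in cKO mouse H95 (-0.56, ratio 0.748) and of Trpc5 in cKO mouse H61 (-1.99, ratio 0.715).

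The per-mouse injury responses of the genotypes did not overlap for Trpv2 (cKO minus control 0.22, exact permutation p 0.00794, n = 5) and for Trpa1 (0.25, exact permutation p 0.00794, n = 5), the smallest p that 5 against 5 mice allow. These p-values are unadjusted, and 9.68% of all genes had one under 0.05, a looser criterion than no overlap. How many of all genes showed no overlap was not counted. Neither gene was called in the interaction over all genes (adjusted p 0.485 for both, edgeR). The control and cKO means were 87.8 and 77.0 CPM contralaterally and 125 and 127 CPM ipsilaterally for Trpv2, and 95.7 and 83.8, then 93.9 and 98.01 CPM for Trpa1.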

How the results depend on the processing

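The calls of Trpv2 after injury held in both genotypes under all 20 alternatives, those of Piezo1 in controls and of Trpa1 and Trpm2 in cKO mice too. Trpc5 lost both calls on log2 FPKM with a pseudocount of 1 (-0.00 in each), a pseudocount far above its FPKM. Leaving out 1 mouse, the number of channels called after injury ran from 3 (without H65) to 6 in controls. The replicate block by mouse changed the 2 injury calls of Trpm8 and that of Piezo1 in cKO mice, with the values given beside them, and no call of another channel. The fibroblast covariate was chosen after seeing the data; with it Trpm8 (-0.32, adjusted p 0.0794) and Trpm2 (-0.15, adjusted p 0.0910) lost their control calls.

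Contralaterally 21 genes differed between genotypes; DESeq2 gave 1030, no filter 50, the filter of at least 1 CPM on average 45, log2 FPKM 12, the fibroblast covariate 2 and only the libraries compared 2, and leaving out 1 mouse 4 to 3326. Channels called there were 2 with DESeq2, 1 with no filter, 1 with the filter at 1 CPM, and 0 to 3 leaving out 1 mouse. The interaction called 11 genes with DESeq2, and 0 to 43 genes and 0 to 1 channels leaving out 1 mouse. The cause was not tested.

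Some uncalled differences changed sign, most of them near 0. The contralateral Trpv1 difference became 0.0034 with DESeq2, 0.0035 with RLE size factors, 0.0025 with the filter at 1 CPM and 0.011 with only the libraries compared; that of Trpm2 became -0.0032 with no filter and -0.0091 with the mouse number range as covariate. Ipsilaterally log2 FPKM gave Trpv1 0.0087 and Piezo1 6.2e-05. The interaction of Trpv1 became -0.0034 with DESeq2, -0.0035 with RLE and -0.0042 with the filter at 1 CPM, and that of Trpm3 -0.00079 with log2 FPKM. The fibroblast covariate gave -0.0078 for Trpv1 after injury in controls, -0.077 for Piezo1 contralaterally (0.16 without it), and interactions of -0.051 for Trpm8 and 0.074 for Piezo1 (-0.17 without it). Leaving out 1 mouse, sign changes fell within -0.069 to 0.065 (Trpv1, injury in controls) and -0.076 to 0.11 (Trpv1, injury in cKO). Contralaterally the ranges were -0.090 to 0.085 for Trpv1, -0.036 to 0.058 for Trpm2, -0.077 to 0.11 for Trpm8 and -0.25 to 0.059 for Trpc5. Ipsilaterally they were -0.021 to 0.020 for Trpv1, -0.077 to 0.056 for Piezo1 and -0.057 to 0.16 for Trpc5. For the interaction they were -0.090 to 0.084 for Trpv1, -0.044 to 0.41 for Trpc5, -0.037 to 0.16 for Trpm8 and -0.052 to 0.031 for Trpm3.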
